A study of Mus musculus with 6 samples.

Results

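The effect of losing *Sox11* in cells that already lacked *Sox4* was examined by setting the 2 arrays of Sox4/11 dcKO keratinocytes against the 2 arrays of Sox4cKO keratinocytes, which are 4 of the 6 arrays of the study. All 4 were chosen by the genotype in their labels. The cells were primary keratinocytes of the epidermis, cultured from the back skin of newborn mice. In Sox4cKO cells a floxed *Sox4* was removed by Krt14-Cre, a recombinase driven in basal epithelial cells, and in dcKO cells floxed *Sox4* and floxed *Sox11* had both been deleted. The Krt14-Cre mice were FVB/N and the floxed mice came from crosses that also carried *Sox12* -/-, per the study's methods. The labels give no Cre status for the wild-type controls, and they give neither the sex of the pups nor whether arrays shared a wild-type culture. All cells, controls included, had been grown on J2 fibroblast feeder cells for 3 passages and then for at least 2 passages without them. Each array carried knockout RNA in one dye and wild-type control RNA in the other, with the dyes swapped between replicate 1 and replicate 2. The question is what *Sox11* still maintains once *Sox4* is gone.

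*Sox4*, *Sox11* and *Sox12* form the SoxC group of transcription factors, which share a DNA-binding HMG domain and can stand in for one another during development. They are active in embryonic progenitors and are largely switched off as tissues mature. In skin, keratinocytes that move into a wound reorganise their actin cytoskeleton and their adhesions, and the EGF receptor pathway, acting through the kinase ERK, is a main driver of that movement. ERK induces the ETS factors *Etv4* and *Etv5* and the brakes of its own pathway, the *Dusp* phosphatases and the *Spry* proteins.

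Values are log2 ratios of knockout over wild type, and the difference is the dcKO ratio minus the Sox4cKO ratio, so that a negative difference means less expression in dcKO relative to its control. Probes were called at a limma adjusted p below 0.05 and an absolute log2 difference above 1.5. Between 35.2% and 42.2% of 55681 probes were well above background in the knockout channels of these arrays and between 37.3% and 45.1% in the wild-type channels. All 12 keratinocyte markers were above background, among them *Krt5* and *Krt14*, the keratins of basal keratinocytes, whose differences were 0.35 and 0.14. Of 14 fibroblast markers 4 were well above background on both arrays of at least 1 group of channels, and the collagen gene *Col1a1* was above background in none. *Vim*, a filament gene of fibroblasts and cultured cells, was above background on both arrays in the wild-type channels of the Sox4cKO arrays, at log2 levels of 8.44 and 8.16, and lay between 4.83 and 5.41 in all 4 channels of the dcKO arrays. It differed by 1.89 with an adjusted p of 0.0748. Of 12 immune markers 4 were above background, of 9 melanocyte markers 4 and of 6 endothelial markers 2, with none called. The part of other cells in the results was not tested.

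The targeted genes were examined first. The *Sox11* ratios were -3.07 and -3.79 on the dcKO arrays and 0.82 and -0.97 on the Sox4cKO arrays. Both dcKO arrays lay below both Sox4cKO arrays, while the Sox4cKO arrays stood on either side of 0. The difference of -3.36 ± 0.50 (SE; limma adjusted p = 0.0408) was called, and the other *Sox11* probe gave -3.01. *Sox4* had ratios of -2.23 and -2.81 in dcKO and -2.49 and -2.54 in Sox4cKO. Its difference of -0.01 ± 0.22 (SE) was not called, with an adjusted p of 0.996, so the arrays differed in *Sox11* and not detectably in *Sox4*. *Sox12* was above background in none of the 4 groups of channels.

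Over the whole array 313 probes were called, 0.562% of those tested, with 140 higher (0.251%) and 173 lower (0.311%) in dcKO than in Sox4cKO. All 313 differed in the same direction in both same-numbered array pairs. The call itself favours this, since it asks for a large mean difference with a small spread. Over all genes, 33.0% were lower and 28.8% higher in both pairs. Taking the brightest probe of each named gene, 221 of 21368 genes were called (1.03%), with 95 higher (0.445%) and 126 lower (0.59%). More of these calls were shared with dcKO against wild type than with Sox4cKO against wild type. Of the 313 probes, 183 were also called in dcKO against wild type, 20 in Sox4cKO against wild type, 0 in both, and 110 in neither. Over all probes, 0.756% were called in dcKO against wild type and 0.14% in Sox4cKO against wild type. These comparisons share the same arrays and are not independent of the difference.

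The count depended on the processing. With a background offset of 50 in place of 16, limma called 0 probes, with 6673 at an unadjusted p under 0.05, and with the scanner software's processed signals it called 0, with 6422 at such a p. With median centring in place of loess 149 were higher and 969 lower. Without the dye term, which is the replicate block, 97 were called. Leaving out Sox4cKO replicate 1, Sox4cKO replicate 2, dcKO replicate 1 or dcKO replicate 2 left 21, 49, 70 and 125 calls, and leaving out either Sox11cKO array, which enters only through the shared spread, gave 811. The 60 called genes that the naming rule gave kept their direction in all of these settings, but without those 4 arrays in turn 11, 22, 18 and 23 of them were called.

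Genes lower in dcKO than in Sox4cKO were led by *Lgals1*, which encodes the secreted lectin galectin-1. Its ratios were -5.88 and -6.69 in dcKO and 3.09 and -0.86 in Sox4cKO. The Sox4cKO arrays differed widely between themselves, yet both lay far above the dcKO arrays, and the difference was -7.40 ± 1.05 (SE; limma adjusted p = 0.0368). The remaining 8 galectins measured ranged from -0.03 to 0.85 and none was called. *Krt18*, a keratin of simple epithelia that pairs with *Krt8*, had ratios of -4.57 and -3.50 in dcKO and 1.41 and 1.77 in Sox4cKO. Its difference was -5.62 ± 0.30 (SE; limma adjusted p = 0.00217). *Krt8* itself differed by -1.28 and was not called, with an adjusted p of 0.16, and the other simple epithelial keratins, *Krt19* and *Krt7*, differed by 0.40 and 1.89 without a call.

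The promoters of *Krt18* and of the cytoskeletal genes *Evl* and *Fblim1*, described below, are shown because these genes are lower in dcKO and hold the letters ACAAAG, a core that SOX proteins can bind. The sequences are the 250 bases before an annotated start, from RefSeq on GRCm38.p6 and 5′ to 3′ along the gene, with the match in capitals on either strand (CTTTGT is the same core on the other strand). They are *Krt18* at chr15:102027966-102028215 (+), *Evl* at chr12:108554470-108554719 (+) and *Fblim1* at chr4:141599999-141600248 (-).
Krt18: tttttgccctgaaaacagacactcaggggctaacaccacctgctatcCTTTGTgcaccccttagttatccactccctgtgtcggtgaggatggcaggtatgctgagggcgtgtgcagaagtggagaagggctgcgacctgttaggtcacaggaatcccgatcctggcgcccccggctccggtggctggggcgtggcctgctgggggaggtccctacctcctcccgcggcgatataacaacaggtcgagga
Evl: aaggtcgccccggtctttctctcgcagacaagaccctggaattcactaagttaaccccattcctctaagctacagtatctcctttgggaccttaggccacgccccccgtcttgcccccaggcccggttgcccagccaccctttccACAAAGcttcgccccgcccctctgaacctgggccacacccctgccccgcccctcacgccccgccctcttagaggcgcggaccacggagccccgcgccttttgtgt
Fblim1: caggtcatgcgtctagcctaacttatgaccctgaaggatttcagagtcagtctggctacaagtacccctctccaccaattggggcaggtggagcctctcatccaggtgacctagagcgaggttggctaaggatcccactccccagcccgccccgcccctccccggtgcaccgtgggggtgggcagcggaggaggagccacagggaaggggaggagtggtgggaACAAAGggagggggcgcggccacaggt

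The core ends 197 bases before the start of *Krt18*, 99 before that of *Evl* and 21 before that of *Fblim1*. The window of another *Evl* start also holds it and that of another *Fblim1* start does not. The core is common. Of 32851 promoter windows of this length, 16.5% hold it. Among called genes with a window it was present for 19 of 94 lower genes (20.2%) and 9 of 75 higher genes (12%), beside 17.1% of the genes on the array. Of the called genes among the study's listed positive targets, described below, 7 had a window and 3 held the core (42.9%). The windows of *Fscn1*, *Gng2*, *Marcksl1* and *Pxdn*, which are among those targets, do not hold it. A match is a description of these letters only, and neither binding nor a cause was measured.

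The other genes among the 15 most negative included *Angptl4*, which encodes an inhibitor of lipoprotein lipase, at -2.93 and -3.56 in dcKO and 3.16 and 1.17 in Sox4cKO, a difference of -5.42 ± 0.50 (SE; limma adjusted p = 0.01). Over 15 other settings of processing and arrays, the knockout channels alone included, the *Angptl4* difference ranged from -6.64 to -1.98. *Rgs16*, a brake on G protein signalling, had a difference of -4.46, *Wfdc2*, a secreted protease inhibitor, of -4.42, *Emb*, which encodes the membrane glycoprotein embigin, of -4.13, and *Pcolce2*, an enhancer of procollagen processing, of -3.83. *Irf1*, an interferon regulatory factor, differed by -3.71 at its brightest probe and by -0.11 at its other one, and it was the sole called member among 28 interferon response genes, whose median was -0.09. *Clec2f*, a C-type lectin gene, was not well above background in the dcKO knockout channel on either array. Relative to control it was at least 18.0-fold lower in dcKO than in Sox4cKO (limma adjusted p = 0.00534). Another called *Clec2f* probe gave -3.69, with too little signal for a bound. *Pxdn*, which encodes the matrix enzyme peroxidasin, was likewise not well above background in the dcKO knockout channel and was at least 16.2-fold lower (limma adjusted p = 0.00534). Its other probe differed by -1.82 and was not called.

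**Figure D1:**
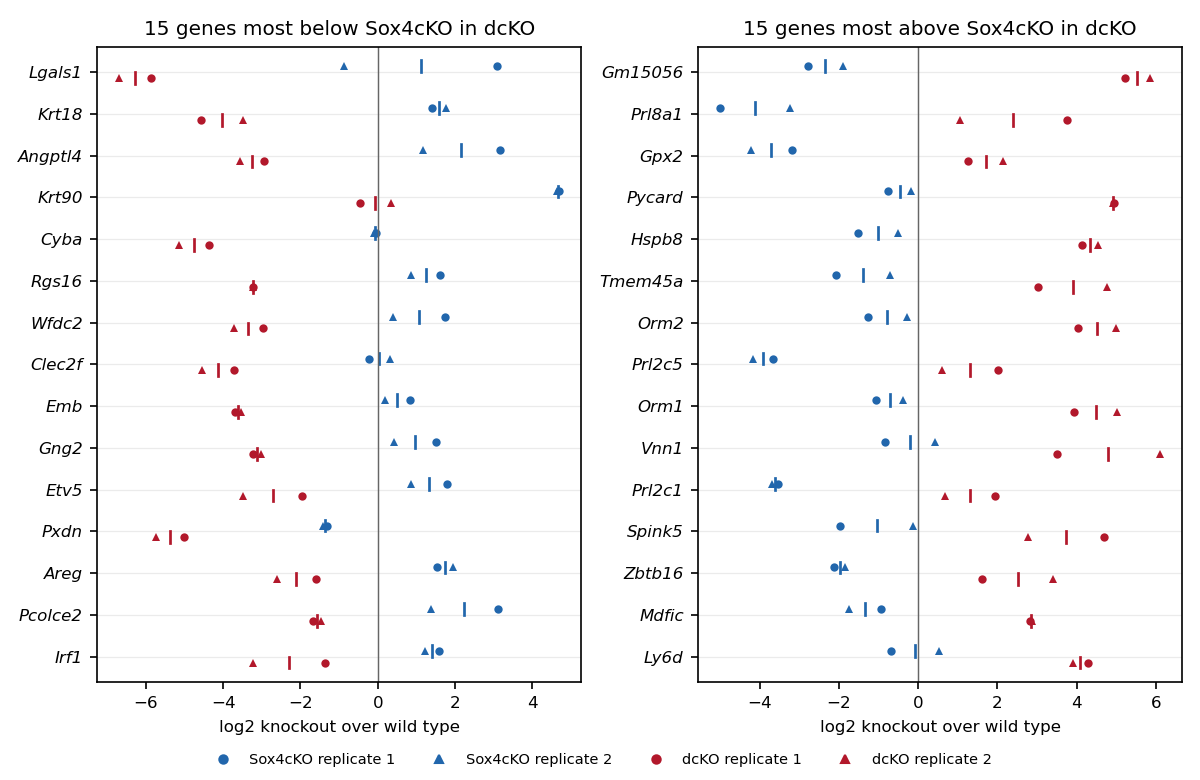
Log2 ratios of knockout over wild type on each array for the 15 called genes most below and the 15 most above Sox4cKO in dcKO. Circles are replicate 1, triangles replicate 2 and ticks the mean of the 2 arrays. For every gene both dcKO arrays lie on the same side of both Sox4cKO arrays, which the choice of called genes favours.

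Higher in dcKO than in Sox4cKO were genes of several kinds. *Gm15056*, a predicted gene, was at the top, with ratios of 5.23 and 5.85 in dcKO and -2.78 and -1.90 in Sox4cKO. The groups were far apart, and the difference was 7.88 ± 0.87 (SE; limma adjusted p = 0.0186). *Pycard*, which encodes the inflammasome adaptor ASC, had ratios of 4.94 and 4.91 in dcKO and -0.76 and -0.17 in Sox4cKO, and its difference of 5.39 ± 0.23 (SE) had an adjusted p of 0.00102, the smallest of all and equal to that of *Orm2*. It was the sole called member of 18 inflammasome and IL-1 genes, whose median was 0.06. *Orm1* and *Orm2*, acute phase plasma proteins, had dcKO ratios of 3.93 and 5.03 and of 4.04 and 4.99. *Orm2* differed by 5.29 (limma adjusted p = 0.00102), *Orm1* was also called, and *Vnn1*, the ectoenzyme pantetheinase, differed by 5.01. Those 3 were the called members among 23 acute phase and innate defence genes, whose median was -0.05. *Orm1* and *Orm2* are near-identical copies, and their probes may not tell them apart.

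*Spink5*, an inhibitor of epidermal proteases, had ratios of 4.70 and 2.78 in dcKO and -1.97 and -0.13 in Sox4cKO, and its difference was 4.79 ± 0.73 (SE; limma adjusted p = 0.0426). *Ly6d*, a surface protein of keratinocytes, had ratios of 4.29 and 3.91 in dcKO and -0.69 and 0.54 in Sox4cKO, and its difference was 4.17 ± 0.51 (SE; limma adjusted p = 0.0233). Other leading genes were *Hspb8*, a small heat shock protein, at 5.36, *Tmem45a*, a membrane protein of the epidermis, at 5.30, *Zbtb16*, which encodes the repressor PLZF, at 4.49, and *Mdfic*, a regulator of transcription factors, at 4.19.

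In the prolactin family, most of whose members are placental hormones, the Sox4cKO ratios lay farther from 0 than those of dcKO. *Prl2c5*, a proliferin, had ratios of 2.02 and 0.61 in dcKO and -3.67 and -4.18 in Sox4cKO, a difference of 5.24 ± 0.59 (SE; limma adjusted p = 0.019). It was called against wild type in Sox4cKO, at -3.92, and not in dcKO, at 1.31. *Prl2c1* was likewise called in Sox4cKO, at -3.61, and differed by 4.92, and *Prl8a1* at 6.51 had ratios of -4.99 and -3.23 in Sox4cKO. Of the 5 proliferin genes measured, 2 were called (40%, beside 1.03% of all genes), and their sequences are close enough that these probes may share signal.

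The EGF receptor, ERK and FGF genes held many calls. Of 24 members, 7 were lower and 1 was higher, or 33.3% beside 1.03% of all genes, and the median difference was -0.66 beside -0.02 for all genes. Both dcKO arrays lay below both Sox4cKO arrays for 13 members, where 23.3% of all genes did so, and above both for 4, where 20.4% did so. The gene lists, this one included, were chosen with earlier results of these data known, so their shares of calls are not independent evidence. Of the 24 members 19 were above background, as were 12175 of all 21368 genes. *Hbegf*, *Dusp5*, *Dusp6* and *Spry1* lay outside the naming rule and were chosen after their values were seen.

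Among the ETS factors, *Etv5* had ratios of -1.95 and -3.49 in dcKO and 1.78 and 0.87 in Sox4cKO. Its difference was -4.05 ± 0.33 (SE; limma adjusted p = 0.00591). *Etv4* had ratios of -1.93 and -3.29 in dcKO and 0.48 and 0.10 in Sox4cKO, and its difference was -2.90 ± 0.39 (SE; limma adjusted p = 0.0305). For both factors the dcKO arrays were below 0 and the Sox4cKO arrays above it, and 1 of the 2 *Etv4* probes was called. *Etv1*, the remaining member of that ETS group, differed by -0.03.

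Among the ligands, *Areg*, which encodes amphiregulin, had ratios of -1.61 and -2.62 in dcKO and 1.54 and 1.94 in Sox4cKO. Its difference was -3.86 ± 0.34 (SE; limma adjusted p = 0.00892). *Hbegf*, the heparin-binding ligand, differed by -1.82 (limma adjusted p = 0.0308). The ligands *Epgn*, *Ereg*, *Tgfa* and *Btc* were not called, at -1.41, -0.84, -0.65 and 0.05. The receptors *Egfr*, *Erbb2*, *Erbb3*, *Fgfr1* and *Fgfr2* were not called either, with differences between -0.68 and 0.32, and *Fgfr3* gave 2.20 with an adjusted p of 0.331.

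Of the listed *Dusp*, *Spry* and *Spred* genes, brakes of the pathway, 3 were called, all lower. *Dusp6*, an ERK phosphatase, had ratios of -2.01 and -2.22 in dcKO and 0.49 and -0.43 in Sox4cKO, and its difference was -2.14 ± 0.26 (SE; limma adjusted p = 0.023). *Dusp5*, a nuclear ERK phosphatase, differed by -1.76. *Spry1*, which was not well above background in the dcKO knockout channel, was at least 3.37-fold lower relative to control in dcKO (limma adjusted p = 0.0331), while *Dusp4*, *Spry2*, *Spry4*, *Spred1* and *Spred2* were not called. *Fgfbp1*, a carrier that releases FGFs from the matrix, ran the other way, with ratios of 2.34 and 1.76 in dcKO and -0.26 and -0.29 in Sox4cKO and a difference of 2.33 ± 0.23 (SE; limma adjusted p = 0.0131). *Ccnd1*, which encodes the G1 cyclin D1, had ratios of -1.24 and -1.28 in dcKO and 0.29 and 1.12 in Sox4cKO. It was the sole called member of 31 cell cycle genes, at -1.97 ± 0.25 (SE; limma adjusted p = 0.0271), and the median of that list was -0.29.

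**Figure D2:**
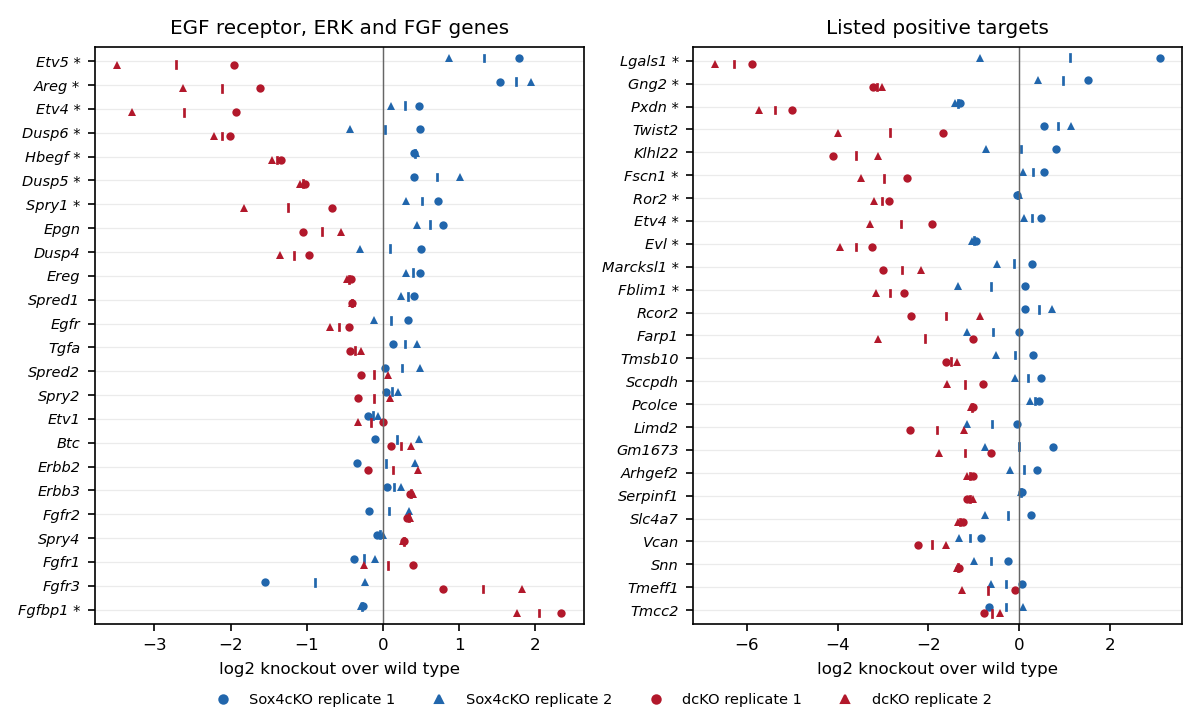
Log2 ratios of knockout over wild type on each array for the 24 EGF receptor, ERK and FGF genes and the 25 listed positive targets, ordered by the dcKO minus Sox4cKO difference. Circles are replicate 1, triangles replicate 2, ticks the mean of the 2 arrays and asterisks the called genes, 8 on the left and 9 on the right.

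The study lists 25 genes as direct targets that SOX11 and SOX4 activate and 4 that they repress. It chose them in part because they changed on these dcKO arrays, so their direction here is not independent evidence. All 25 positive targets differed below 0 in both array pairs, as 33% of all genes did, and 9 were called, or 36% beside 1.03% of all genes. Their median difference was -1.48 beside -0.02 for all genes, and their median ratio against wild type was -1.92 in dcKO and -0.02 in Sox4cKO. *Fscn1*, which encodes the actin bundling protein fascin, had ratios of -2.48 and -3.48 in dcKO and 0.54 and 0.07 in Sox4cKO. Its difference was -3.29 ± 0.38 (SE; limma adjusted p = 0.0216).

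*Evl*, an Ena/VASP protein that extends actin filaments, had ratios of -3.25 and -3.96 in dcKO and -0.95 and -1.04 in Sox4cKO. It was below 0 on all 4 arrays and farther below in dcKO, by -2.61 ± 0.34 (SE; limma adjusted p = 0.0271). *Fblim1*, a filamin-binding protein of focal adhesions, had ratios of -2.54 and -3.16 in dcKO and 0.12 and -1.34 in Sox4cKO, and its difference was -2.24 ± 0.25 (SE; limma adjusted p = 0.019). *Marcksl1*, a membrane protein that binds actin, differed by -2.48. *Gng2*, a G protein subunit, differed by -4.08, most of it in the wild-type channels. The other called members were *Lgals1*, *Pxdn*, *Etv4* and *Ror2*. *Tmsb10*, which binds actin monomers, *Klhl22*, a ubiquitin ligase adaptor, and *Twist2*, a transcription factor, gave -1.40, -3.64 and -3.69 without a call, with adjusted p of 0.155, 0.0614 and 0.0507. *Twist2* was below background in the wild-type channel of Sox4cKO, which makes its difference a bound of at least 12.6-fold. The remaining uncalled positive targets ranged from -2.05 for *Rcor2* to -0.31 for *Tmcc2*. Of the 4 repressed targets *Rasgrp1*, an activator of RAS, was called at 2.90, and *Camta1*, *Slco3a1* and *Chit1* gave 1.78, 1.31 and 0.25. *Rasgrp1* was not well above background on any channel of the Sox4cKO arrays, so no fold is given.

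The wider cytoskeletal lists showed small median differences. The actin and motility list leaves out *Fscn1*, *Evl*, *Fblim1* and *Marcksl1*, called among the targets above, so it does not stand for all actin genes. None of its 49 genes was called at its brightest probe. Their median was -0.36 beside -0.02 for all genes, and 32 of them (65.3%) were lower in both array pairs, where 33% of all genes were. *Acta2*, smooth muscle actin, had an adjusted p of 0.0423 at -1.37 and missed only the threshold on size. Of 19 tubulin and microtubule genes *Tuba1a*, a tubulin of neurons and growing cells, was called, with ratios of -3.71 and -3.51 in dcKO and -0.42 and -1.44 in Sox4cKO and a difference of -2.68 ± 0.30 (SE; limma adjusted p = 0.0192). *Itga2*, the collagen receptor subunit, was the sole called member of 17 hemidesmosome and integrin genes at -2.56 (limma adjusted p = 0.0497), and the list's median was -0.61. *Tead2*, a known SoxC target, gave -1.77 at its brightest probe without a call and -2.72 with a call at its other probe. *Tubb3*, *Prox1* and *Dcx*, of the same list of known targets, gave -0.63, -0.32 and 0.80 and were not called. The study found tagged SOX11 and SOX4 bound at *Tead2* and *Tubb3* in keratinocytes. In its reporter assay SOX11 activated transcription through the *Tead2* region.

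Keratinocyte differentiation genes were not called as a group. None of 22 differentiation markers, 56 genes of the epidermal differentiation complex, 13 desmosome genes or 4 wound keratins was called at its brightest probe, and the medians of these lists were 0.30, -0.16, 0.49 and 0.20. *Sprr2a2*, a cornified envelope gene of that complex outside the list, was called at a dimmer probe, at 4.09 (limma adjusted p = 0.00593), while its brightest probe gave 0.15. It was chosen after its values were seen, and the near-identical *Sprr2a* copies may share signal. *Casp14*, a protease of cornifying cells, and *Tgm1*, a crosslinking enzyme of the cornified envelope, gave 2.10 and -1.40 with adjusted p of 0.14 and 0.158. *Krt15*, a basal and hair follicle keratin, was called among 10 basal genes, with ratios of 0.88 and 0.81 in dcKO and -1.52 and -1.64 in Sox4cKO and a difference of 2.43 ± 0.22 (SE; limma adjusted p = 0.00917). *Epcam*, an epithelial adhesion protein, differed by -1.79 and was the sole call among the 12 keratinocyte markers. A p that misses the threshold with 2 arrays per genotype does not show that these genes were alike.

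Redox genes were called in both directions. Of 30 glutathione and redox genes, 3 were higher and 2 lower (16.7% beside 1.03% of all genes), and the median was -0.04. *Gpx2*, a glutathione peroxidase of epithelia, had ratios of 1.26 and 2.15 in dcKO and -3.19 and -4.22 in Sox4cKO, and its difference was 5.41 ± 0.64 (SE; limma adjusted p = 0.0225). *Gsta3*, a glutathione transferase, differed by 3.48 and *Cat*, catalase, by 2.20, while *Prdx4*, a peroxiredoxin of the endoplasmic reticulum, differed by -3.00. *Cyba*, a subunit of NADPH oxidase, had ratios of -4.38 and -5.14 in dcKO and -0.04 and -0.09 in Sox4cKO, for a difference of -4.69. Its Sox4cKO ratios rest on little signal, since 1 of the 4 channels of those arrays was well above background.

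Single members were called in the remaining pathway lists. In the Wnt and Ror list 2 of 38 were lower, *Wnt5a*, a non-canonical Wnt ligand, at -2.57 and its receptor *Ror2*, whose dcKO ratios were -2.86 and -3.20. *Ror2* was not well above background on any channel of the Sox4cKO arrays, so its ratios there rest on no measured signal. In TGF-beta and BMP signalling *Ltbp3*, which stores latent TGF-beta, was lower at -2.43 (1 of 28). In the Hippo list *Amotl1*, which holds YAP at junctions, was lower at -1.62 (1 of 15). Of 18 imprinted growth genes *Cdkn1c*, which encodes the cell cycle inhibitor p57, was lower at -2.72, and of 49 matrix genes *Fbln1*, fibulin, was lower at -2.08. *Atf3*, a stress-induced factor, was lower at -1.84 (1 of 21), and *Scd2*, a fatty acid desaturase, higher at 2.41 (1 of 29 barrier lipid genes). Of 34 serpins *Serpina3f* was lower at -3.65 and *Serpinb1b* and *Serpina3m* were higher at 2.01 and 1.62, the latter with no signal well above background on the Sox4cKO arrays. None of 18 Notch, 15 chemokine and 18 glycolysis genes was called. The shares in these lists lay between 0% and 8.82%, beside 1.03% of all genes.

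Because every ratio has a wild-type channel, a difference between dcKO and Sox4cKO can arise from the knockout cells, from the controls or from both. The channels were therefore separated. When the knockout channels alone were compared between the dcKO and Sox4cKO arrays, 104 probes were called (0.187%), and between the wild-type channels 42 were called (0.0754%), although the labels give those the same genotype. Of the 313 probes called in the ratios, 28 were also called in the knockout channels and 12 in the wild-type channels. For the 173 lower probes the median difference was -0.97 in the knockout channels and 1.1 in the wild-type channels. For the 140 higher probes these medians were 1.17 and -1.23. In 148 of the 313 the knockout channels contributed more than the wild-type channels, and in 33 they had the opposite sign to the ratio, dim probes included.

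**Figure D3:**
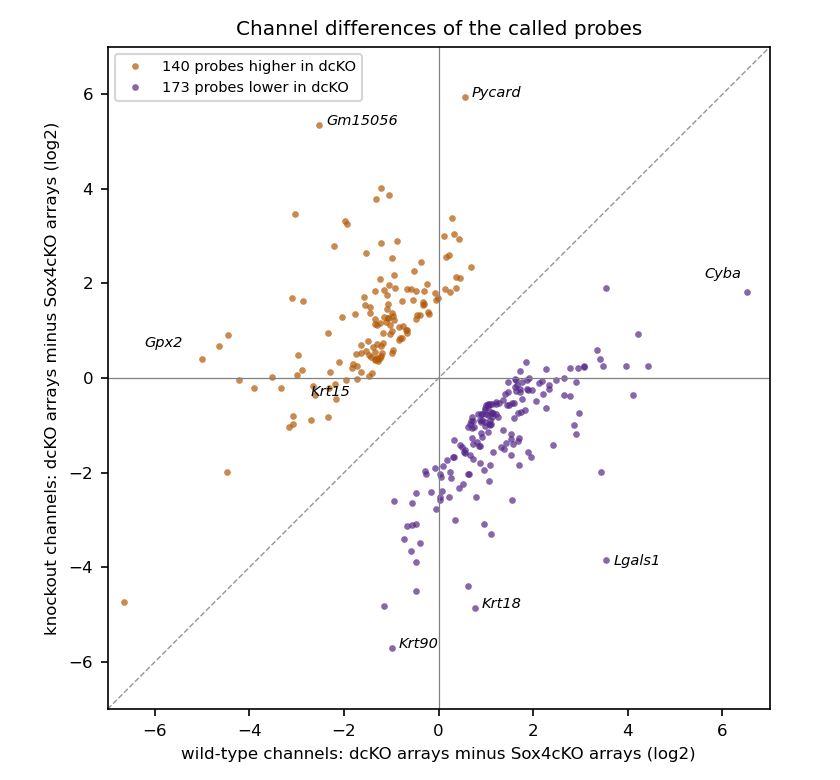
Log2 difference between dcKO and Sox4cKO arrays in the wild-type channels (horizontal axis) and in the knockout channels (vertical axis) for the 313 called probes. Vertical distance from the dashed line of equality is the difference in the ratios, and *Pycard* at 5.95 and *Krt18* at -4.86 lie along the vertical axis while *Gpx2* and *Cyba* lie along the horizontal one.

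Named genes fell on both sides of that division. Called in the knockout channels as well as in the ratios were *Pycard* at 5.95, *Prl8a1* at 3.47, *Ly6d* at 2.64, *Marcksl1* at -2.40, *Emb* at -2.57, *Evl* at -3.08, *Etv5* at -3.09, *Tuba1a* at -3.41, *Lgals1* at -3.85 and *Krt90* at -5.72. Some of these had large differences in the controls too. The wild-type channels gave -3.05 for *Prl8a1*, -1.53 for *Ly6d*, 1.55 for *Emb* and 0.96 for *Etv5*. They gave 0.56 for *Pycard*, 0.08 for *Marcksl1*, -0.47 for *Evl* and -0.73 for *Tuba1a*. For *Lgals1* the ratios differed by -7.40, well beyond the -3.85 of its knockout channels. *Sox11* itself gave -3.01 in the knockout channels and 0.35 in the wild-type channels. *Pxdn*, *Krt18*, *Cdkn1c* and *Fscn1* likewise had knockout channel differences of -4.49, -4.86, -2.78 and -2.51 against wild-type channel differences of -0.48, 0.76, -0.06 and 0.78, although these did not pass the threshold.

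On the other side, *Gpx2*, *Clec2f*, *Ror2*, *Prdx4* and *Snhg18* were called in the wild-type channels, at -5.01, 4.42, 3.41, 2.91 and 3.53. The wild-type channels of *Ror2* and *Snhg18* were not well above background on the Sox4cKO arrays. In *Snhg18* the knockout channels, above background on all 4 arrays, differed by 1.91, opposite to its ratio. *Cyba* gave 6.52 in the wild-type channels and 1.82 in the knockout channels, and *Wnt5a* 2.79 and 0.22, with part of their Sox4cKO signal not well above background. In *Mdfic* the knockout channels differed by -0.04 and the wild-type channels by -4.23. The knockout channels of *Ror2* and *Clec2f* were not well above background in dcKO, and their sign there cannot be read. *Hspb8*, *Tmem45a*, *Krt15*, *Rgs16*, *Irf1* and *Itga2* had knockout channel differences of 0.90, 0.67, 0.13, -0.35, -0.75 and -0.23, and most of their difference lay in the controls. Knockout and wild-type channels gave -1.18 and 2.90 for *Gng2*, -0.29 and 1.47 for *Dusp5*, and -0.18 and 1.61 for *Epcam*. They gave -0.53 and 1.55 for *Fbln1*, -1.42 and 2.41 for *Pcolce2*, 1.68 and -3.11 for *Spink5*, and 1.63 and -2.87 for *Zbtb16*. For the 25 positive targets the median was -1.02 in the knockout channels and 0.51 in the wild-type channels, and for the EGF receptor, ERK and FGF genes -0.08 and 0.35. Among the latter *Etv5* and *Etv4* differed mostly in the knockout channels, at -3.09 and -1.94, and *Areg* and *Hbegf* mostly in the wild-type channels, at 2.87 and 1.28. What set the controls apart was not tested.

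Removing *Sox11* from cells that keep *Sox4* was then set beside its removal from cells that lack it. The test asked whether the dcKO minus Sox4cKO difference departs from the ratio in Sox11cKO cells, in which floxed *Sox11* alone had been deleted. It called 183 probes (0.329%), 103 above (0.185%) and 80 below (0.144%) the Sox11cKO ratio. Of the 313 probes called between dcKO and Sox4cKO, 126 (40.3%) were also called here, and the 2 contrasts share the dcKO and Sox4cKO arrays. Of the 313, 11 (3.51%) were called in Sox11cKO against wild type, where 0.0862% of all probes were. *Krt18*, for example, had ratios of 1.15 and 1.00 in Sox11cKO, on the other side of 0 from dcKO, and departed by -6.70 (limma adjusted p = 0.00243).

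Genes called in both settings numbered 7, and 0.178% of all genes were called in Sox11cKO. *Sox11* was lower in each, at -3.36 here and -2.98 in Sox11cKO, and did not depart detectably between them, with an adjusted p of 0.898. *St6gal1*, a sialyltransferase, was at -2.20 here and -2.16 in Sox11cKO, with Sox11cKO arrays at -2.04 and -2.29 and dcKO arrays at -2.53 and -1.87. It was not well above background in the dcKO knockout channel, and relative to control it was at least 4.59-fold lower in dcKO than in Sox4cKO. Between those arrays the knockout channels of *St6gal1* differed by -0.44 and the wild-type channels by 1.76, so much of this difference lay in the controls. *Krt90*, a keratin gene, was at -4.73 here and -3.12 in Sox11cKO. Its dcKO arrays carried no signal well above background in either channel, and its difference came from ratios of 4.70 and 4.64 in Sox4cKO. *Col4a5*, a basement membrane collagen, *Gsta3*, *Gstk1*, another glutathione transferase, and *Snhg18*, a small nucleolar RNA host gene, had opposite signs in the 2 settings.

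**Figure D4:**
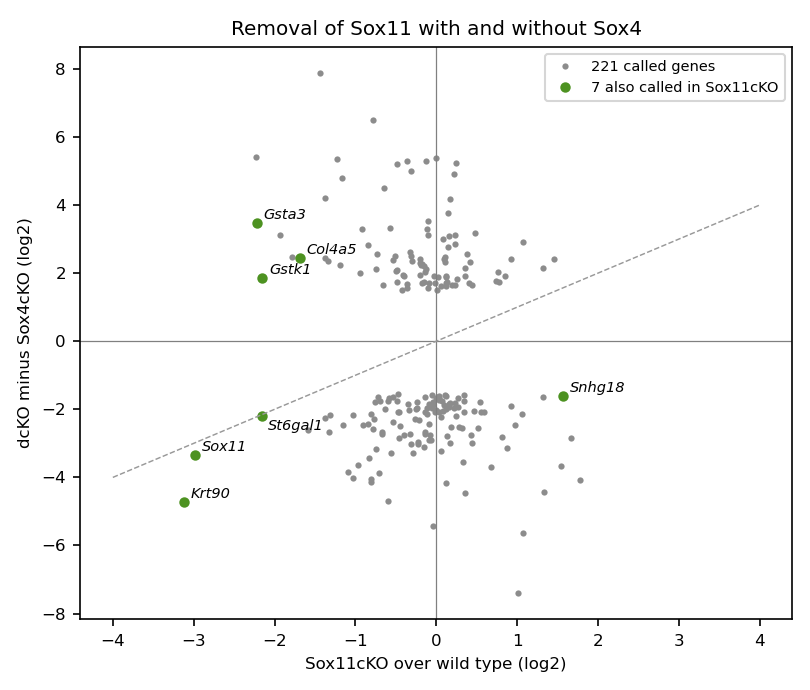
The dcKO minus Sox4cKO difference (vertical axis, log2) against the Sox11cKO ratio over wild type (horizontal axis, log2) for the 221 called genes, with the 7 that were also called in Sox11cKO in green. The dashed line marks equal values, and *Sox11* and *St6gal1* lie near it while most other genes stand above or below a Sox11cKO ratio close to 0.

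Genes of the sex chromosomes divide the arrays in the same way as that test. *Xist* lay between 8.19 and 9.46 on the log2 scale in all 8 channels of the dcKO and Sox4cKO arrays and between 4.62 and 5.04 in the 4 channels of the Sox11cKO arrays. The Y-linked *Eif2s3y* was above background in all channels of the Sox11cKO arrays alone, at 9.26 to 10.30. The dcKO minus Sox4cKO difference thus compares arrays alike in these genes, and the departure from the Sox11cKO ratio does not, so that sex and genotype cannot be told apart there. Without Sox11cKO replicate 1 the departure was called at 1907 probes, without replicate 2 at 593, without Sox4cKO replicates 1 and 2 at 9 and 35, and without dcKO replicates 1 and 2 at 85 and 87.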

How the data were processed

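Expression was measured on 2-colour arrays, 2 per genotype, grouped by the labels' genotype. The authors deposited spot intensity values on a linear scale, not normalised, which came from Feature Extraction 11.0.1.1 per the submitters' processing notes, beside processed intensity values and the authors' table of log2 ratios, which served as alternatives. All arrays came from 1 slide and 1 scan.

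Median signals were corrected with limma 3.58.1 (R 4.3.3; normexp, offset 16). The 3671 control spots were left out, outlier-marked spots set to missing, arrays loess normalised and replicate spots averaged to 55681 probes. Linear models over 6 arrays held 3 genotype effects and a dye effect, which is identical to a replicate block, since the knockout dye was Cy5 in replicate 1 and Cy3 in replicate 2. Deviations of same-numbered Sox4cKO and dcKO arrays correlated at 0.244 over probes. The fit left 2 residual degrees of freedom and the prior added 5.37. P-values were adjusted by Benjamini-Hochberg over all probes. Single channels were obtained by loess and Aquantile. Precision is limited by the 2 arrays per group, which the labels call replicates and the study's methods biological replicates. Whether arrays shared a wild-type culture is not given, so p-values measure the spread between these arrays. A bound for a dim probe sets each channel that is not well above background at the lowest signal above background on that array.

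Of 29786 probes with a RefSeq accession, 95.1% were named through a GRCm38.p6 table, giving 21368 genes, each shown by its brightest probe. The array design is mm9, so no probe coordinates are given. Named were the SoxC genes, the 15 most changed called genes in each direction that were above background, up to 4 called members of each of 40 gene lists (else the 2 with the smallest adjusted p), the study's listed targets and genes also called in Sox11cKO. Members and lists were chosen with earlier results of these data known. Calling was also tried on simulated data for dcKO minus Sox4cKO over 55584 probes, few of which were changed. Of 67 probes changed by a log2 of 2, 53 were recovered (79.1%), and of 67 changed by 3, 66 were (98.5%). That simulation also gave 8 false calls. These shares hold for the simulated noise, and recovery on the arrays themselves was not tested.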

Additional observations from a re-analysis of the deposited data

Results flagged for a closer look

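For 4 genes the dcKO minus Sox4cKO difference and the Sox11cKO ratio were both called, with opposite signs. The departure of the dcKO minus Sox4cKO difference from the Sox11cKO ratio was tested in the fit over all 6 arrays, and the Sox11cKO arrays also differed from the other 4 in *Xist* and Y-linked genes, whose part was not tested.

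*Gsta3*, a glutathione transferase, had ratios of -2.41 and -2.02 in Sox11cKO, -3.70 and -2.46 in Sox4cKO, and 0.11 and 0.69 in dcKO. It was thus below 0 in both single knockouts and not in dcKO, and the departure was 5.70 (limma adjusted p = 0.00243). Between dcKO and Sox4cKO its knockout channels differed by 0.50 and its wild-type channels by -2.98. *Gstk1*, a glutathione transferase of mitochondria and peroxisomes, showed the same order, with -1.84 and -2.46 in Sox11cKO, -1.90 and -1.63 in Sox4cKO, and 0.04 and 0.18 in dcKO, and departed by 4.02 (limma adjusted p = 0.0118). Its knockout channels differed by 1.79 and its wild-type channels by -0.08.

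*Col4a5*, a collagen chain of the basement membrane, had ratios of -1.11 and -2.27 in Sox11cKO, -0.38 and -1.19 in Sox4cKO, and 2.16 and 1.15 in dcKO. It was not well above background in the dcKO wild-type channel, was at least 5.43-fold higher relative to control in dcKO than in Sox4cKO, and departed by 4.13 (limma adjusted p = 0.00414). Its knockout channels differed by 0.33 and its wild-type channels by -2.11. *Snhg18* was above 0 on all 6 arrays, at 1.51 and 1.63 in Sox11cKO, 3.03 and 2.75 in Sox4cKO, and 1.22 and 1.32 in dcKO. Its wild-type channel in Sox4cKO was not well above background, so that it was at least 2.83-fold lower relative to control in dcKO, and it departed by -3.19 (limma adjusted p = 0.0127). Its knockout channels differed by 1.91, against the sign of its ratio, and its wild-type channels by 3.53.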

How the results depend on the processing

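Counts of probes are given as the dcKO minus Sox4cKO difference (313), the departure from the Sox11cKO ratio (183), the knockout channels (104) and the wild-type channels (42). An offset of 50 gave 0, 0, 0 and 0 by limma, with 6673, 6014, 4509 and 4750 at an unadjusted p under 0.05, and the scanner software's processed signals gave 0 and 0, with 6422 and 5685. Those signals moved the median of all probes to 0.16 for the difference. Median centring in place of loess gave 1118, 1189, 150 and 70, and 13.3% of the first were higher in dcKO, against 44.7%, and 15.1% of the second lay above, against 56.3%. The authors' log2 ratios gave 664 and 902, subtracting the dye effect before the fit 350 and 346, and restricting the test to probes above background 563, 633, 230 and 155. The fit with only the 4 dcKO and Sox4cKO arrays gave 811 for the difference. Without the replicate block, which is the dye term, 97, 41, 132 and 58 probes were called. Leaving out 1 array at a time gave 21 to 811, 9 to 1907, 0 to 337 and 0 to 286 probes, and the causes were not tested.

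The difference of *Sox4*, close to 0, was 0.0778 with an offset of 50, 0.0991 with processed signals, -0.55 with median centring and -0.37 in the knockout channels, and was called in none of these. When 1 array was left out it ranged from -0.23 to 0.21, *Chit1* from -0.0355 to 0.544 and *Tmeff1* from -0.855 to 0.0625. *Chit1* reached 1.41 with processed signals and *Tmeff1* -1.003 with median centring. In the knockout channels alone the sign turned for *Cyba* (1.82), *Snhg18* (1.91), *Serpinf1* (0.47), *Twist2* (0.46), *Ror2* (0.41), *Clec2f* (0.26), *Wnt5a* (0.22), *Mdfic* (-0.0359) and *Chit1* (-0.121), of which *Mdfic* and *Snhg18* had knockout channels well above background on all 4 arrays. Among the 60 called genes named by rule, 54 kept their direction there and 10 were called. The alternative on mean signals could not be run, since the raw spot signals available here were medians and not means. Single channels were not fitted for the authors' ratios, the processed signals, the dye-subtracted values or the 4-array fit.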

Other observations

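The genes below were chosen after their values were seen, because they were lower in dcKO than in Sox4cKO, and they stand for no tested group. *Fosl1*, which encodes an AP-1 subunit induced by ERK, differed by -2.96, with -2.79 and -3.13 in the 2 array pairs. *Odc1*, the rate-limiting enzyme of polyamine synthesis, differed by -3.16. *Epha2*, an ephrin receptor, differed by -1.98, and *Phlda1*, a gene induced by growth factors, by -2.09. Each was called by limma, at adjusted p of 0.00534, 0.00368, 0.0234 and 0.0264. Knockout and wild-type channels gave -1.26 and 1.70 for *Fosl1* and -1.64 and 1.52 for *Odc1*. They gave -1.27 and 0.71 for *Epha2* and -1.53 and 0.56 for *Phlda1*.

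The chromatin proteins *Hmga1* and *Hmga2* differed by -2.78 and -2.90 (limma adjusted p of 0.0278 and 0.0271). The knockout channels of *Hmga1* differed by -1.46 and its wild-type channels by 1.32, while those of *Hmga2* differed by -0.63 and 2.27. *Akap12*, a scaffold for protein kinases, differed by -3.09 (limma adjusted p = 0.00534). It was -3.49 in the knockout channels and -0.40 in the wild-type channels, so for *Akap12* the controls differed less than the knockout cells.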
